A study of Mus musculus with 2 samples.

Results

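The RNAs described here are the named small nucleolar RNAs (snoRNAs) and small Cajal body RNAs (scaRNAs) of the mouse, measured in gastrocnemius, a calf muscle. They are the genes whose symbol starts with Snord, Snora or Scarna and whose annotated biotype is snoRNA or scaRNA. The rule gave 149 of the 55536 genes listed, under 146 distinct symbols, and 1409 other snoRNA or scaRNA genes fell outside it. The 149 comprise 98 Snord, 42 Snora and 9 Scarna genes, and each has 1 annotated transcript. Snord43 was left out because its biotype is miRNA.

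The study sequenced total RNA from gastrocnemius of male B6CASTF1/J mice aged 2 months, which are first-generation hybrids of the B6 and CAST strains, with no treatment named in the labels. It has 1 group of 2 libraries, numbered as biological replicates 1 and 2, each prepared from 300 ng of RNA to which ERCC spike-in RNA was added. The labels give separate tissue samples under the same donor entry and do not say that the animals differed, so the spread between these samples may be technical. With 1 group there is no comparison between conditions, and the report describes levels and the difference between the libraries.

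SnoRNAs are stable noncoding RNAs of the nucleolus that work inside protein complexes. C/D box RNAs (Snord) pair with ribosomal or spliceosomal RNA and direct methylation of a ribose, and H/ACA box RNAs (Snora) direct the conversion of uridine to pseudouridine. The scaRNAs carry the same boxes but reside in Cajal bodies, where they guide modification of spliceosomal RNAs. In mammals most of these RNAs are cut out of the introns of host genes, many of which encode proteins of translation, and a few are transcribed from promoters of their own.

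The sequences below are a selection: RNAs called between the libraries, pairs of one name, a scaRNA that holds a miRNA, and examples with few or no reads. They are written as DNA, 5′ to 3′, from the mm10 assembly and GENCODE M21 coordinates. In C/D box RNAs capitals mark the first TGATGA within the first 20 nt (letters of box C) and the last CTGA within the last 15 nt (letters of box D). A mark is a match of letters and need not be the box itself. In Snord15a and Snord15b the marked TGATGA stands at different places. In H/ACA box RNAs and Scarna13 capitals mark ACA placed 3 nt before the end.
Snord15b: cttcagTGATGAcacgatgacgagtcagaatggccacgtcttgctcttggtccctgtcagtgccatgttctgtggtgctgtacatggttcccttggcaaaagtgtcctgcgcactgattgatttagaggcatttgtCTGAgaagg
Snord15a: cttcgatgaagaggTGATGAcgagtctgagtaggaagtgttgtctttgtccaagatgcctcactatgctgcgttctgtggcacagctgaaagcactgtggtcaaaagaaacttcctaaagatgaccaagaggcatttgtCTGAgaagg
Snord22: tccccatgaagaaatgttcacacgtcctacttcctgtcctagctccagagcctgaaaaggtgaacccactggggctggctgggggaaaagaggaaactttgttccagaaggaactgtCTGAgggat
Snord17: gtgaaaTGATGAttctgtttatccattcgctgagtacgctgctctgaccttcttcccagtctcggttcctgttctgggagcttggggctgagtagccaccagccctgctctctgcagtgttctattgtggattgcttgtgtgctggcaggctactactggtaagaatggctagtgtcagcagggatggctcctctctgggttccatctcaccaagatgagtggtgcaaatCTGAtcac
Snord118: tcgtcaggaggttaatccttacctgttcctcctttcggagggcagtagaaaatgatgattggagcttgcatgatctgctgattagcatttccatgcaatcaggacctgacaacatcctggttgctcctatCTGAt
Snord47: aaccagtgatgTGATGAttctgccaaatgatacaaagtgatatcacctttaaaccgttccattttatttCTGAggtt
Snord116l1: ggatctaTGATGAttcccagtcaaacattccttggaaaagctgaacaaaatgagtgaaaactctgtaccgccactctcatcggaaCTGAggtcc
Snora73b: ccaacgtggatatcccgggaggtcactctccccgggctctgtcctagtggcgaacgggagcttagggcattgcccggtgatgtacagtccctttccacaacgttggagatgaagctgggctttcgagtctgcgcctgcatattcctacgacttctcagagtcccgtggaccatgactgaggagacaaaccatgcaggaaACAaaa
Snora73a: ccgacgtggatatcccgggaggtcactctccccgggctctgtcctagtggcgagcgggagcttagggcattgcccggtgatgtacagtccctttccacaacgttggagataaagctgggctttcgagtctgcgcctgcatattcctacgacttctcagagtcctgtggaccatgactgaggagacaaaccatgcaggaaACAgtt
Snora23: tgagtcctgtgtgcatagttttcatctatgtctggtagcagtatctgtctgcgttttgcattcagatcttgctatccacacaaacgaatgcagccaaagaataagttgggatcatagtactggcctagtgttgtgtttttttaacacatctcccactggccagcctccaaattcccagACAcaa
Scarna13: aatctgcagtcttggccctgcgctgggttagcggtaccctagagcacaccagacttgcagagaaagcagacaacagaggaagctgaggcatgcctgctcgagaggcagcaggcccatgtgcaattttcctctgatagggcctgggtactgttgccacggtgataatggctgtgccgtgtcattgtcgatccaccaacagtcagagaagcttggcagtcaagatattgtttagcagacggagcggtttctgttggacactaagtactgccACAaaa

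Snord15b lies at chr7:99479563-99479707 and Snord15a at chr7:99482785-99482932, both on the minus strand within Rps3. Snord22 lies at chr19:8725866-8725991 on the plus strand within Snhg1, and Snord17 at chr2:144265979-144266216 on the minus strand within Snx5. Snora73b (chr4:132352322-132352526) and Snora73a (chr4:132352775-132352979) lie on the minus strand within Snhg3. Snora23 lies at chr7:110046364-110046547 on the plus strand within Ipo7, and Scarna13 at chr12:105031075-105031349 on the minus strand within Snhg10. Snord118 lies on the plus strand at chr11:69073427-69073561 with no host gene. Snord47 lies at chr1:161038082-161038158 on the plus strand within Gas5, and the first Snord116 copy at chr7:59894620-59894713 on the minus strand within Snhg14.

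The boxes were far more frequent in the C/D and H/ACA box RNAs than in other short genes. TGATGA stood in the first 20 nt of 70 of 98 Snord genes (71.4%), against 0.575% of 7131 other annotated genes of 1 exon and 60 to 330 nt, and in 0 of 42 Snora genes. CTGA stood in the last 15 nt of 92 of 98 Snord genes (93.9%), against 7.10% of the other short genes, and in 3 of 42 Snora genes. ACA stood 3 nt before the end in 35 of 42 Snora genes (83.3%), against 1.81% of the other short genes, and in 0 of 98 Snord genes. The 9 scaRNAs were mixed, with TGATGA in 4, CTGA in 5 and ACA in 2. The looser H box pattern ANANNA was found in the middle stretch of 39 of 42 Snora genes, the sequence being cut into 3 equal stretches, but also in 58.2% of the other short genes. Only the transcribed strand was searched, and a match is a description of the letters.

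Annotated length set which of these RNAs could be counted. In the first of 2 kinds of deposited table, the effective length of a transcript, the number of positions from which a read can start, was its annotated length less 99 nt. It was 0 for 89 of the 149 RNAs, all shorter than 100 nt, and all 89 had 0 reads in both libraries. These were 87 of the 98 C/D box RNAs and 2 scaRNAs, Scarna9 and Scarna17, so their counts of 0 set no limit on their level. Snord47 with 77 nt and the 17 copies of Snord116 with 94 nt each, of which the first is printed above, belong to them.

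Of the 60 RNAs with an effective length above 0, 50 had reads in at least 1 library: 7 of 11 C/D box, 36 of 42 H/ACA box and 7 of 7 scaRNAs. Any expected count above 0 was taken as reads, also a fraction of 1 read that may belong to another gene. One identifier of Snora16a had 0.44 and 0 expected reads in replicates 1 and 2, and the other 0 and 0.4. All their stretches of 100 nt also occur in Snhg12. Reads were found in both libraries for 34, in replicate 1 alone for 9 and in replicate 2 alone for 7. A level of at least 1 TPM (transcripts scaled to a fixed total per library, after division by effective length) in both libraries was reached by 32 RNAs, 5 of them C/D box, 22 H/ACA box and 5 scaRNAs. The 10 with no reads were Snora19, Snora20, Snora35, Snora36b, the second identifier of Snora43, Snora75, Snord23, Snord67, Snord89 and Snord90. For these, a count of 0 allows up to 3 reads in a library, or 0.0699 CPM (reads scaled to a fixed library total) in replicate 1 and 0.0706 CPM in replicate 2. This limit does not cover Snora19, Snora75 or the second identifier of Snora43. All stretches of 100 nt in them also occur in a transcript of another gene, to which their reads could be assigned. The other identifier of Snora43 had 8 and 5 reads. TPM divides by effective length, so the value of 1 read differed widely: 5.82 TPM for Snord13 with 104 nt, and 0.0924 TPM for Scarna2 with 414 nt.

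**Figure D1:**
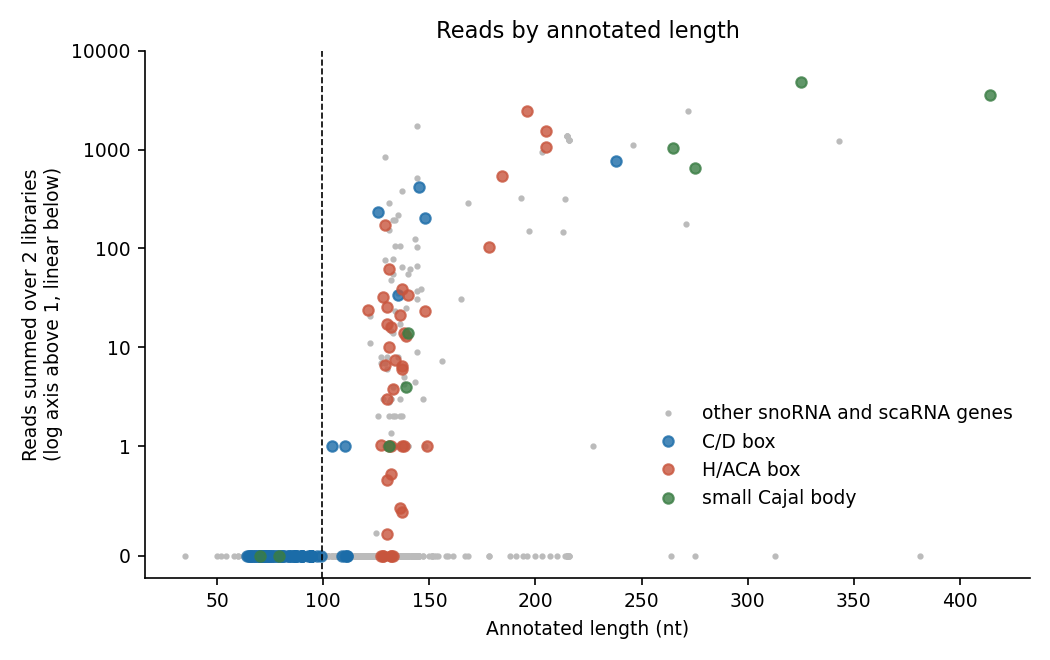
Reads summed over the 2 libraries (vertical axis, log above 1) against annotated length in nt for the 149 named RNAs, coloured by class, and 1409 other snoRNA and scaRNA genes in grey; the dashed line stands at 100 nt. All 89 named RNAs to the left of the line have 0 reads, and 50 of the 60 to its right have an expected count above 0.

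Together the 149 RNAs took 9435 reads in replicate 1 and 8578 in replicate 2, which is 0.0220% and 0.0202% of all counts. Their summed level was 2271 TPM in replicate 1 and 1987 TPM in replicate 2, a mean of 2129 ± 201 TPM (SD, n = 2). H/ACA box RNAs summed to 1147 and 1016 TPM, scaRNAs to 647 and 607 TPM, and C/D box RNAs to 477 and 363 TPM in replicates 1 and 2. The order of the classes by summed TPM was the same in both libraries, but the C/D box sum covers only the 11 of 98 RNAs that could be counted. The scaRNA sum covers 7 of 9. The order also depends on the division by effective length. By reads, scaRNAs stood above H/ACA box RNAs, with 5212 against 3267 in replicate 1 and 4892 against 2974 in replicate 2. Among the RNAs that could be counted, the level was concentrated in few. The 5 most abundant held 56.4% of their TPM, the first 10 held 81.3% and the first 13 held 90.4%. Reads also differed with annotated length among the RNAs that could be counted. The median of reads summed over both libraries was 6.59 for 9 RNAs of 121 to 129 nt. It was 3.81 for 29 RNAs of 130 to 139 nt and 28.21 for 6 RNAs of 140 to 149 nt. For 3 RNAs of 178 to 196 nt it was 543, and for 7 RNAs of 205 to 414 nt 1063.5. The part of length in the levels and their order was not tested. In bulk tissue, a lower level from fewer cells and one from less RNA per cell cannot be told apart.

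Snord15b and Snord22 were the most abundant C/D box RNAs that could be counted. Snord15b, a guide for ribosomal RNA, had 150.4 TPM in the first library and 116.9 TPM in the second (134 ± 23.7 TPM, SD, n = 2). Snord22, the U22 RNA needed to process the small subunit's ribosomal RNA, was at 150.4 and 104.2 TPM (127 ± 32.7 TPM, SD, n = 2). The spread within each was larger than the difference between their means, so their order is not resolved. Snord17 followed with 93.6 and 67.2 TPM, and Snord15a, the other RNA of that name in Rps3, with 67.1 and 54.6 TPM. The Snord15 sequences printed above are identical at 107 of 162 aligned positions (66.0%), and Snord15a shares no 100 nt word with an annotated transcript of another gene.

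Snord118, the U8 RNA that takes part in processing the large subunit's ribosomal RNA, was lower: its 19 reads in replicate 1 gave 15.4 TPM and its 15 reads in replicate 2 gave 12.1 TPM. Snord13 and Snord8 had 0 reads in replicate 1 and 1 read in replicate 2, listed at 5.82 and 2.64 TPM. Each of these 2 values rests on 1 read.

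Snora74a and the Snora73 pair led the H/ACA box RNAs. Snora74a had 368.0 TPM from 1226 reads in replicate 1, and 369.7 TPM from 1233 reads in replicate 2, the highest level of the 60 RNAs that could be counted. Snora73b was at 226.2 and 192.8 TPM, and Snora73a at 149.2 and 142.8 TPM. Snora73 (U17 or E1 RNA) acts in cleavage of the precursor of ribosomal RNA. The ranges of these 3 RNAs over the libraries did not overlap, so their order held in each library. The Snora73 sequences are identical at 198 of 205 positions (96.6%), so the split of their reads rests on few positions; the deposited posterior SD of the count was 6.81 reads for Snora73b and 6.87 for Snora73a in replicate 1, against counts of 824 and 543.

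Snora23 was at 106.2 and 79.7 TPM, and Snora44 at 101.5 and 67.4 TPM. Their ranges over the libraries overlapped, so their order is not resolved beyond this spread. Snora68 followed at 31.9 and 23.7 TPM, and Snora81 at 21.9 and 16.3 TPM. Snora78, Snora26 and Snora21 had means of 16.1, 15.6 and 14.9 TPM, each from 11.7 to 20 reads per library. These are guides of the same class, and the other 26 H/ACA box RNAs with reads had means of 12.02 TPM or less.

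Scarna10 and Scarna2 were the most abundant scaRNAs that could be counted. Scarna10 (U85 RNA), which carries both kinds of box, was at 314.7 TPM (2443 reads) and 312.8 TPM (2431 reads). Scarna2, which has no host gene and is transcribed on its own, was at 172.3 and 154.8 TPM. Scarna6 was at 97.7 and 82.3 TPM, and Scarna13 at 56.1 and 50.4 TPM. These 4 did not overlap over the libraries and kept the same order in each. Scarna3a stood at 4.97 TPM in both libraries from 7 reads each, Scarna3b at 0.73 and 2.18 TPM, and Scarna8 at 0.91 and 0 TPM from 1 read.

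**Figure D2:**
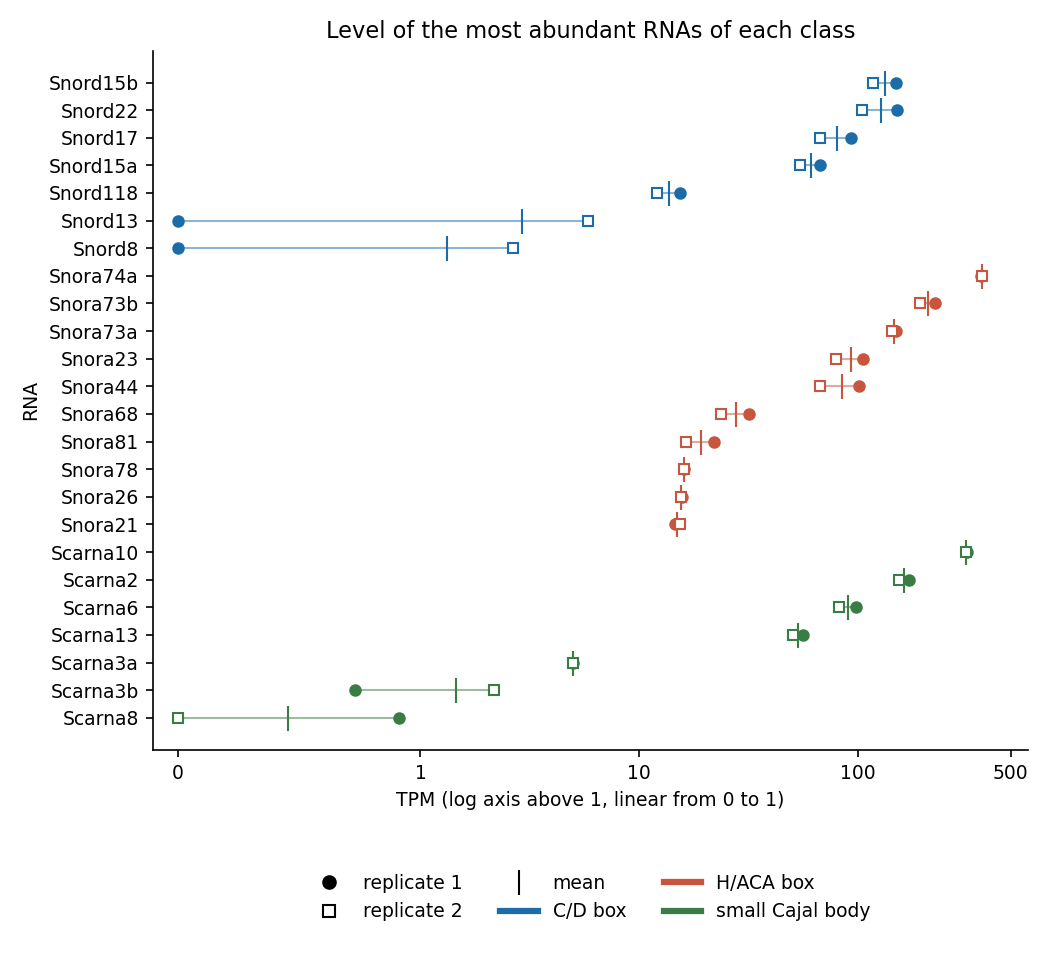
TPM (horizontal axis, log above 1) in replicate 1 (filled circles) and replicate 2 (open squares), with the mean as a vertical tick, for up to 10 RNAs of each class with the highest mean; 7 C/D box RNAs and 7 scaRNAs had reads. Snora74a and Scarna10 stand above all others in both libraries, and the 2 C/D box RNAs and 1 scaRNA at the left edge have 0 reads in 1 library.

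The order depended in part on the length used. By reads per annotated length in place of effective length, Scarna10 ranked first, followed by Snora74a and Scarna2, and Snord22 moved from rank 7 to rank 11. Of the 10 RNAs highest by TPM, 8 were among the 10 highest by that measure. Across the 50 RNAs with reads, log2(TPM + 1) in the libraries correlated with Pearson's r = 0.95 and Spearman's rho = 0.903, a description over genes that share libraries.

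Reads could also belong to a longer RNA that holds the same sequence. Of the 60 RNAs with an effective length above 0, all 100 nt words of 23 occur in a transcript of another gene on the same strand, some words of 6 do, and none of 31 do. Snord15b shares all its words with a transcript of Rps3, Snord22 with Snhg1, Snora44 with Snhg12, Snora81 with Eif4a2 and Snora74a with AC121821.1. For these the deposited expected counts divide reads between the RNA and its host. Scarna10 shares 81.4% of its words, with Gm28967 and Ncapd2. Scarna2, Snora23, Scarna6, Snord17, Snord15a and Scarna13 share none with an annotated transcript of another gene. All of these except Scarna2 lie within a host gene. Unspliced host RNA, which holds the same sequence, was not searched. Snora73b shares none on its strand, but all its words lie antisense in Gm17300, and no source used here says whether strand was used in counting.

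Most of the RNAs lie within another gene on the same strand, called the host here. For 11 RNAs that lie within several genes, the gene with the highest mean TPM was taken. A host was found for 140 of 149, in 90 distinct genes, of which 67 are protein coding and 24 encode ribosomal proteins. Of the 149, 56 lie within an exon of at least 1 annotated transcript of another gene. The 9 without a host include Scarna2, Snord118, Snord13 and Scarna17. The 50 RNAs with reads had 44 with a host, and 15 of these 44 exceeded the mean TPM of that host. Snora23 was at 93.0 ± 18.7 TPM, and its host Ipo7, a nuclear import receptor, at 39.6 and 37.4 TPM. Scarna6 was at 90.0 ± 10.8 TPM, and its host Atg16l1, an autophagy gene, at 6.39 and 6.07 TPM. TPM divides by effective length, which was 85 of 184 nt for Snora23 and 166 of 265 nt for Scarna6. Whether an RNA exceeds its host can thus depend on the length used, and a comparison by annotated length was not made.

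Others fell far below their hosts. Snora21 had a mean of 14.9 TPM, and its host Rpl23, a ribosomal protein gene, was at 151 and 163 TPM. Rps3, also a ribosomal protein gene, was at 94.96 and 95.84 TPM and holds both Snord15b, above it at 134 TPM, and Snord15a, below it at 60.9 TPM. The TPM of Snord15b divides by an effective length of 46 of its 145 nt, so its place above Rps3 may depend on the length used. Over the 53 RNAs with a host and an effective length above 0, the levels of RNA and host had Pearson's r = -0.07 and Spearman's rho = 0.0019 on log2(TPM + 1), a description over genes, some of which share a host or reads.

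**Figure D3:**
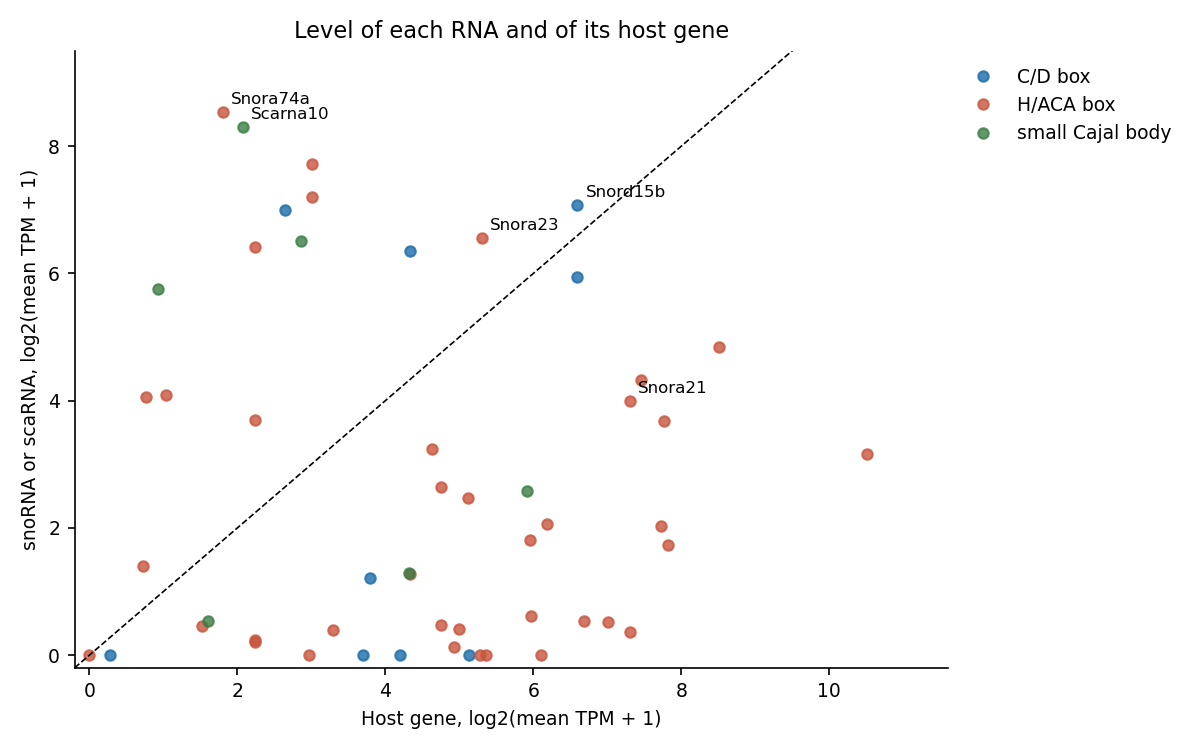
Mean level of each of 53 RNAs with an effective length above 0 (vertical axis) against that of its host gene (horizontal axis), both as log2(mean TPM + 1) over 2 libraries and coloured by class; the dashed line marks equal levels. Snora74a and Scarna10 stand far above the line and Snora21 far below it.

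The RNAs too short to be counted lie mostly in genes that the muscle expressed. Of the 89 with an effective length of 0, 87 have a host, in 47 distinct genes with a median of 14.9 TPM, and 44 of the 47 were at 1 TPM or more in both libraries. These 44 hold 84 of the 87. Atp5b, a subunit of ATP synthase and host of Snord59a, was at 1264 and 1596 TPM. Eef2, a translation elongation factor and host of Snord37, was at 523 and 483 TPM, and Hspa8, a chaperone gene that holds Snord14c, Snord14d and Snord14e, at 509 and 459 TPM. Rpl13a, which holds Snord32a, Snord33, Snord34 and Snord35a, was at 216 and 228 TPM.

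Gas5, a noncoding gene known for its many intronic snoRNAs, holds Snord47, Snord78 and both identifiers of Snord80. Gas5 reached 35.9 TPM in the first library and 25.8 TPM in the second, and was called higher in replicate 1 (log2 ratio -0.50, adjusted p = 5.8e-08, exact test). Snhg14, the noncoding host of the 17 Snord116 copies in an imprinted region best known from neurons, was at 1.33 and 1.77 TPM. A host's level gives no level of the RNA in its intron.

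The second kind of deposited table, which holds transcript levels estimated in another way, gave reads to 1 of the 149 RNAs. Scarna2, the longest of them at 414 nt, had 542 and 496 estimated counts there, or 168 and 149 TPM, near its 172 and 155 TPM in the first tables. The other 148 were listed at 0, among them Snora74a and Scarna10. The 2 kinds of table therefore differ on whether 49 of these RNAs had an estimated count above 0, which for some was a fraction of 1 read. The gene and transcript tables of the first kind gave equal counts within 0.01 reads for all 149.

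The libraries were then compared RNA by RNA, as replicate 2 over replicate 1, with a conditional binomial test (exact, two-sided) on rounded expected counts scaled by TMM, adjusted over 14827 genes with at least 20 reads. The test compares these libraries and has no replicate check. It covered 23 of the 149 RNAs: 5 C/D box, 14 H/ACA box and 4 scaRNAs. At an adjusted p under 0.05, 3 of the 23 were higher in replicate 1, where 11.7% of all genes tested were called, and 0 were higher in replicate 2, where 14.4% were. At an unadjusted p under 0.05 the counts were 8 and 0, for which no share over all genes was computed. None of the 23 differed by 2-fold or more at an adjusted p under 0.05, against 3.15% of all genes tested. The 3 of 23 is near the share in all genes. The count rested on the scaling: it was 7 with library totals and 6 with DESeq2 size factors, which added Snora73b, Snora44 and Scarna2, and with library totals Scarna6 as well. Of all 14827 genes tested, 1736 were higher in replicate 1 with TMM, 2134 with library totals and 1960 with DESeq2 size factors.

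The 3 RNAs were Snord17, Snora23 and Snord22. Snord17 had 447 reads in replicate 1 and 321 in replicate 2, a log2 ratio of -0.43 (95% interval -0.64 to -0.22, adjusted p = 0.000323 by the exact test). Snora23 had 310 and 233 reads, a log2 ratio of -0.36 (interval -0.61 to -0.11, adjusted p = 0.0183, exact test). Snord22 had 140 and 96.8 expected reads, a log2 ratio of -0.48 (interval -0.87 to -0.10, adjusted p = 0.0443, exact test), and all its 100 nt words are shared with Snhg1. Ipo7, the host of Snora23, did not pass the test (log2 ratio -0.05, adjusted p = 0.178, exact test). Snx5, the host of Snord17, was called higher in replicate 1 (log2 ratio -0.19, adjusted p = 0.00253, exact test). With ERCC totals as the scale, Snord22 was no longer called (adjusted p = 0.087, exact test).

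Among the 5 most abundant RNAs that could be counted, the intervals of Scarna10, Snora74a and Snora73a include 0, and those of Snora73b and Scarna2 do not. Scarna10 had a log2 ratio of 0.04 (interval -0.04 to 0.12) and Snora74a one of 0.06 (interval -0.06 to 0.17). Snora73a had a log2 ratio of -0.01 (interval -0.19 to 0.16). Its sign changed with ERCC totals as the scale, to 0.04. Snora73b had a log2 ratio of -0.18 (interval -0.33 to -0.03, adjusted p = 0.056, exact test) and Scarna2 one of -0.10 (interval -0.20 to -0.01, adjusted p = 0.102, exact test), so neither was called after adjustment with TMM. The widest interval was that of Snora5c, -2.13 to 0.73 from 13.3 and 8.07 expected reads, so a difference of 2-fold was not detectable at that depth.

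In direction, 17 of the 23 ratios lay below 0 and 6 above, with a median of -0.20, against 0.00 for all genes tested. The 5 C/D box RNAs all lay below 0, with a median of -0.31. The 14 H/ACA box RNAs had a median of -0.13 with 9 below 0, and the 4 scaRNAs a median of -0.10 with 3 below 0. With ERCC totals as the scale 16 of the 23 lay below 0. Other short genes were mixed: the 277 tested genes of 100 to 414 nt that are none of these RNAs had a median of -0.08 with quartiles of -0.40 and 0.20, and 22.4% of them were higher in replicate 1 and 14.8% in replicate 2. These 277 include the genes of the next 2 groups. Among the 47 other snoRNA and scaRNA genes tested, the median was -0.29, and 20 were higher in replicate 1 and 1 in replicate 2. These 47 include 10 Rnu3 genes, 9 of them higher in replicate 1. The Rnu3 genes are near-identical copies that share reads, so their calls are not independent. Among 33 small nuclear RNAs (snRNAs) of that length, the spliceosomal class, the median was -0.40, and 22 were higher in replicate 1 and 1 in replicate 2. Sharing of reads among these snRNA genes was not examined, so their calls may not be independent either. The part of RNA length in the members' ratios was not tested.

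Summed reads, in which the abundant RNAs weigh most, were compared as well. The log2 ratio of the summed counts of all 149 was -0.09 (interval -0.13 to -0.05), that of the C/D box RNAs -0.38 (interval -0.52 to -0.24), that of the H/ACA box RNAs -0.09 (interval -0.16 to -0.01) and that of the scaRNAs -0.04 (interval -0.10 to 0.01). These intervals cover counting error only. The difference between classes was not tested. The 5 muscle markers, Acta1, Ckm, Tnnt3, Mylpf and Myh4, were all called higher in replicate 1. Their median log2 ratio was -0.28, for a summed level of 76323 and 61623 TPM. Of 13 markers of other cell types, 2 were higher in replicate 1 and 4 in replicate 2, against 11.7% and 14.4% of all genes tested. Their part in the snoRNA ratios was not tested.

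**Figure D4:**
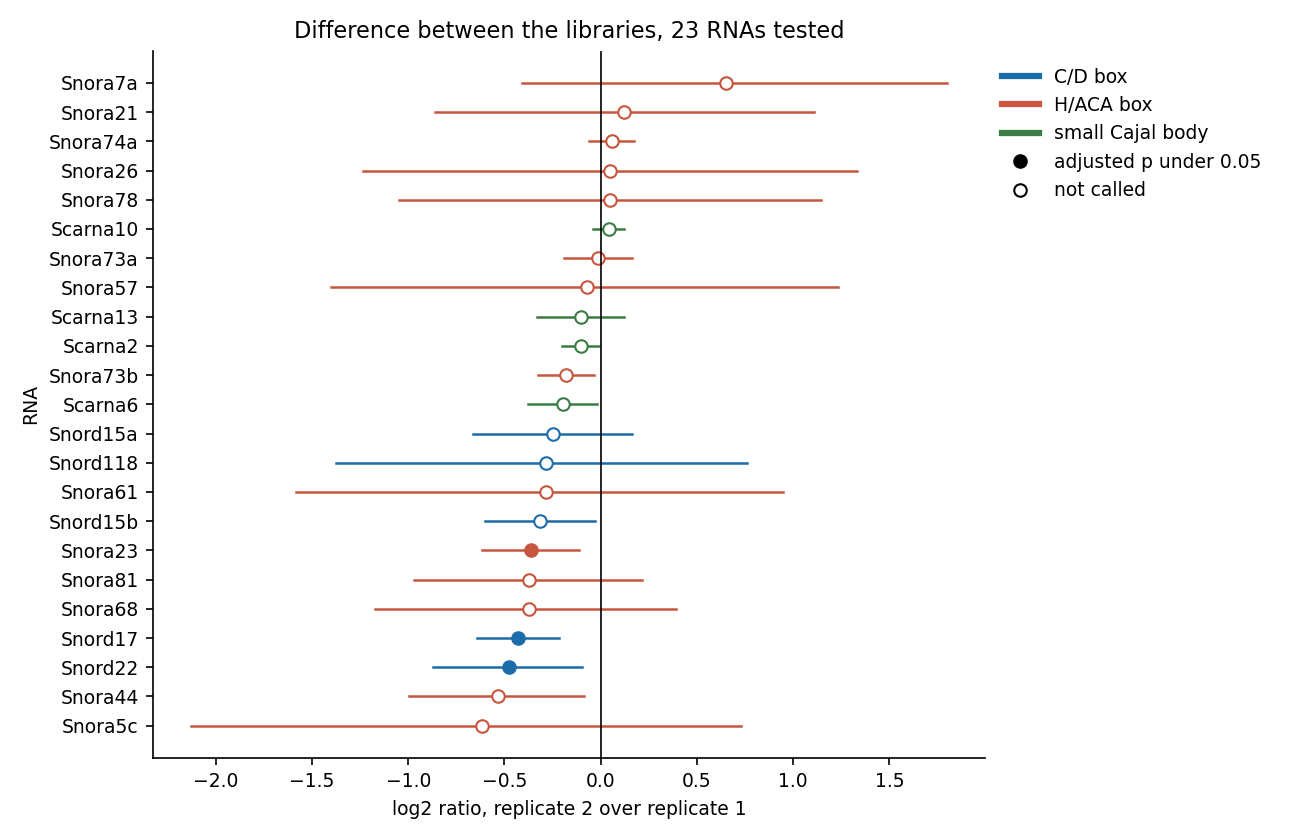
log2 ratio of replicate 2 over replicate 1 (horizontal axis) with 95% counting intervals for the 23 RNAs tested, coloured by class; filled points passed the test at an adjusted p under 0.05. The filled points are Snora23, Snord17 and Snord22, all below 0, and 17 of the 23 points lie below 0.

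The mRNAs of 8 core proteins that bind these RNAs were all detected. The C/D box core proteins are the methyltransferase fibrillarin (Fbl), its scaffolds Nop56 and Nop58 and the RNA-binding Snu13. Snu13 was at 17.4 and 18.3 TPM, Nop56 at 15.1 and 13.3 TPM, Nop58 at 10.1 and 8.09 TPM, and Fbl at 8.30 and 8.81 TPM. The H/ACA box core consists of the pseudouridine synthase dyskerin (Dkc1) with Nop10, Nhp2 and Gar1. Nop10 was at 20.2 and 22.6 TPM, Dkc1 at 11.5 and 8.25 TPM, Nhp2 at 10.1 and 8.57 TPM, and Gar1 at 6.85 and 8.29 TPM. Of these 8 genes, Nop10 alone was called, higher in replicate 2 by 0.21 on the log2 scale (adjusted p = 0.0239, exact test).

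A list of snoRNA complexes, assembly, Cajal bodies, trimming and the nucleolus had 76 entries, of which 70 matched a gene symbol and 69 were tested. Of these, 3 were higher in replicate 1, 3 were higher in replicate 2 and 63 were not called, with a median log2 ratio of -0.01. Over all genes tested, 11.7% and 14.4% were called in these directions. Those higher in replicate 1 were Gemin4 of the SMN complex in Cajal bodies (log2 ratio -0.51), Dcaf13 (-0.39), which acts in making the small ribosomal subunit, and the nucleolar helicase Ddx21 (-0.13). Those higher in replicate 2 were Larp7, which binds 7SK and U6 RNA (0.45), Imp4 of the small subunit processome (0.43) and Nop10.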

How the data were processed

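Total RNA-seq of gastrocnemius gave 2 libraries of 1 group. Each has gene and transcript tables of one layout (first tables, layout of RSEM) and a transcript table of another (second tables, layout of kallisto). No source used here names the programs or their versions. The mm10 assembly and GENCODE M21 are given per the labels' notes. The first tables hold, per the file headers, expected counts, TPM, effective lengths, and posterior means and standard deviations deposited by the authors, the latter read as scores. The second tables hold the estimated counts and TPM that the authors deposited. The assembly represents B6, and CAST alleles, which can map less well, were not counted separately.

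Expected counts totalled 42925570 (replicate 1) and 42467674 (replicate 2), spike-ins included. Symbols and biotypes came from the annotation, to which all 55536 genes matched. Counts were rounded and scaled by TMM factors (edgeR 4.0.16, R 4.3.3). With 1 group no quasi-likelihood test was possible, so replicate 2 was set against replicate 1 by a conditional binomial test (exact, two-sided) for every gene with 20 reads or more in sum, with Benjamini-Hochberg adjustment over all genes tested. Ratios have 0.5 added to each count. Intervals are exact Clopper-Pearson intervals at 95% and cover counting error only. DESeq2 1.42.0 gave alternative size factors. The test was checked on simulated counts drawn with counting error only, so the check does not cover other variation between libraries.

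Named RNAs are the 10 with the highest mean TPM of each class with reads, those past the test with a fold of at least 2 (there were 0), those with reads in the second tables alone (there were 0), and their hosts. Named proteins are the core proteins and the 3 farthest each way past the test. The members, lists and rule were chosen with earlier results of these data known. RNAs and genes named for other reasons (absence of reads, short RNAs and their hosts, Snora5c, Snord22 among the calls) were chosen after their values were seen.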

Additional observations from a re-analysis of the deposited data

How the results depend on the processing

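The number of RNAs higher in replicate 1 was 3, and it became 7 with library totals and 6 with DESeq2 size factors in place of TMM, 0 in the second tables and 0 when a fold of at least 2 was also required. It was 2 with ERCC totals, 2 with a summed count of at least 1 and 4 with posterior mean counts. Over all genes, 1736 of 14827 were higher in replicate 1 with TMM, 2134 with library totals, 1960 with DESeq2 size factors and 1255 with ERCC totals. The all-gene numbers were 1625 of 23312 at a summed count of at least 1, 1710 of 14877 with posterior mean counts and 1622 of 15883 in the second tables. The number higher in replicate 2 was 0 in every alternative run. The median log2 ratio was -0.20 and stayed below 0 throughout. It was -0.14 with ERCC totals, -0.25 with a summed count of at least 10, -0.28 with one of at least 1, and -0.049 in the second tables, where only Scarna2 was tested. An alternative chosen after seeing the data kept the 11 tested RNAs that share no 100 nt word with another gene's annotated transcripts on their strand. Of these, 2 were higher in replicate 1 and the median was -0.18. At a minimum of 10 TPM, 20 RNAs passed in both libraries, and the second tables left 1 at 1 TPM. Without replicate 1 the number at 1 TPM was 36, and without replicate 2 it was 35.

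Mean summed TPM fell from 2129 to 1760 without Snora74a and to 159 in the second tables. For C/D box RNAs it was 420, 287 without Snord15b, and 0 in the second tables. For H/ACA box RNAs it was 1082, 713 without Snora74a, and 0 in the second tables. For scaRNAs it was 627, 314 without Scarna10, and 159 in the second tables. With 1 library left out in turn, the sums ranged from 1987 to 2271 in all, from 363 to 477 for C/D box, from 1016 to 1147 for H/ACA box and from 607 to 647 for scaRNAs. Snora73a changed sign with ERCC totals, from -0.014 to 0.038. The cause of these changes was not tested, beyond the smaller sets of RNAs that the filters and the second tables leave. No paired analysis was possible because the design has 1 group. Depth limits the 27 RNAs with reads but fewer than 20 in sum, which were not tested.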

Other observations

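Abundant snoRNAs also exist outside the naming rule. Gm22988, with 144 nt, had 621 TPM in the first library and 490 TPM in the second, above Snora74a in both, and Gm26447, with 129 nt, was at 444 and 376 TPM. The scaRNA gene Gm25395 was at 207 and 206 TPM. The 10 Rnu3 genes, which encode the U3 RNA that starts processing of the precursor of ribosomal RNA, summed to 1535 and 1203 TPM. Of these, 9 were called higher in replicate 1 by the exact test, but they are near-identical copies that share reads and are not independent.

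Mature miRNAs of the RefSeq table used here lie within 6 of the named RNAs, and Snora19, Snora74a and Snora81 also overlap an annotated gene of miRNA biotype. In Scarna13 the miR-3069 arms lie at positions 210 to 233 and 251 to 272, counted from the 5′ end. Snora34, Scarna3a, Scarna3b, Snora36b and Snord33 overlap miR-1291, miR-1843b, miR-1843a, miR-664 and miR-5121. The 6 hairpin genes had 0 reads in both libraries, and 5 of the 6 are shorter than 100 nt.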
